A study of Mus musculus with 4 samples.

Results

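This comparison covers the cells of 2 hashtags, tag 2 and tag 1, of the second of 2 single-cell experiments on mouse T-cell progenitors. A hashtag is an antibody with a DNA barcode that labels all cells of a culture, so that pooled cells can be assigned afterwards. The 8 hashtag columns of experiment 2 were numbered 1 to 8 in the order of the deposited table. Cells needed 500 or more detected genes and less than 10% of their UMIs (unique molecular identifiers, which count captured RNA molecules) from mitochondrial genes. A cell was given the tag with the highest count where that count was at least 50 and at least 3 times the second. The rule gave 1035 cells to tag 1 and 1025 to tag 2, which is 2060 of the 8335 tagged cells of experiment 2 and of 17132 in both experiments. The pair was selected on measured expression, so the differences between the tags are a description and carry no test.

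All cells were grown from bone marrow of Bcl2 transgenic mice on OP9-Dll1, stromal cells that present the Notch ligand Dll1, with IL-7 and Flt3 ligand. The labels put the cultures of experiment 2 at 4 to 8 days in total, with vector delivery on day 2. Per the series design, the arms were MSCV-Runx1-mCherry against MSCV-empty-mCherry in cells of B6.Bcl2 mice aged 8 to 10 weeks, and guides against Runx1 and Runx3 (E42-gRunx1-hNGFR with E42-gRunx3-mTurquoise) against luciferase guides in cells of B6.Cas9;Bcl2 mice. Each Runx gene was targeted with 3 guide pairs, and no age is given for the Cas9 mice. Sorting took live cells that lacked lineage markers and carried CD45 and the vector reporters. The sources used here do not tie a tag to an arm or a day, so neither tag 1 nor tag 2 is called a treatment or a control. Each tag is 1 culture, and its cells are not replicates, so intervals below are exact 95% intervals for counting error only.

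T-cell progenitors enter the thymus as multipotent cells that still express progenitor and myeloid genes. Notch signals induce Tcf7 and Gata3, and the later onset of Bcl11b closes the other fates. Runx1 and Runx3, with their partner Cbfb, bind DNA at a short core motif and act on both progenitor and T-lineage genes. Kit marks the earliest stages and Il2ra (CD25) the next one.

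Tag 1 held 34290867 UMIs and tag 2 held 28330257. The median cell had 31961 UMIs and 4912 genes in tag 1, and 25377 UMIs and 4535 genes in tag 2. The hashtag signal differed too, with a median count of tag 1 of 9 in cells of other tags and a median count of tag 2 of 2. Of the 10214 cells of experiment 2 that passed the filter, 1879 had no tag by the rule. The 2 experiments shared 39 cell barcodes, 0.369% of those of experiment 2. CD45 was detected as a Ptprc UMI in 94.4% of tag 1 cells and 93.2% of tag 2 cells, and Kit in 56.1% and 66.7%, in cells labelled as Kit high.

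UMIs were summed over the cells of a tag and scaled to a total of 1000000 (CPM). Of 5038 genes with a mean of the 2 tags of at least 20 CPM, 81 were at least 2-fold higher in tag 2 (1.61%) and 30 at least 2-fold lower (0.595%). The median ratio of tag 2 to tag 1 was 1.0, and 93.3% of the genes lay within 1.5-fold. The genes that stood apart were therefore few, and those higher in tag 2 outnumbered those lower. The other 6 tags are given beside them. Among the 81 higher genes, tag 2 had the highest level of all 8 tags in 37 and tag 1 the lowest in 12. Tags 2 and 4 were the 2 highest tags in 48 of the 81 genes. Among the 30 lower genes, tag 2 was the lowest of 8 in 17, and tag 1 was the highest in 2. The genes were chosen by tag 2 against tag 1, so these ranks partly follow from the choice. No share of such ranks over all 5038 genes is given, so the counts are a description only.

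**Figure D1:**
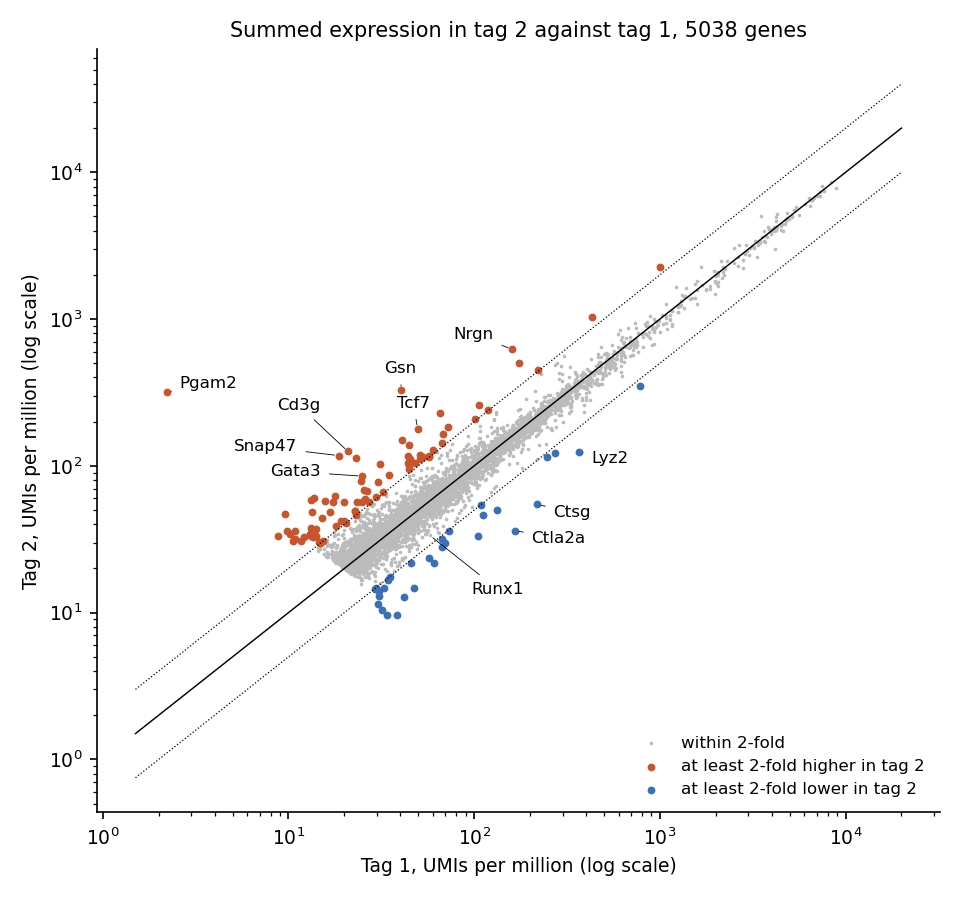
Each point is a gene, with its CPM summed over tag 1 cells on the x axis and over tag 2 cells on the y axis, both on log scales. The solid line is equality and the dotted lines are 2-fold, with 81 genes in orange above and 30 in blue below, and Pgam2 stands apart at the upper left with 2.22 CPM in tag 1 and 317.5 in tag 2.

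The largest ratio belonged to Pgam2, the muscle isoform of the glycolytic enzyme phosphoglycerate mutase (chr11:5801637-5803796, GRCm38.p6, protein coding). Its level was 2.22 CPM in tag 1 and 317.5 CPM in tag 2, a ratio of 143.3 (interval 114.3 to 182.0). Tag 4 was the only other tag at a high level, with 480.5 CPM, and the remaining 5 tags had 2.62 to 9.91 CPM. Within tag 2 the gene was not on in every cell: 496 of 1025 cells had no UMI, 333 had 5 or more, and the highest had 230. In tag 1 only 2 cells had 5 or more. Without the 5 cells of each tag with the most Pgam2 UMIs the ratio was 384.5. Those cells held 65.8% of the Pgam2 UMIs of tag 1 and 8.18% of those of tag 2, so leaving them out raises the ratio. Of 15 other glycolysis genes none was 2-fold higher or lower, and their median ratio was 0.812.

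Gsn (gelsolin, an actin-severing protein; chr2:35256359-35307902) followed with 40.4 CPM in tag 1 and 327.9 in tag 2, a ratio of 8.12 (interval 7.67 to 8.60). Tag 2 had the highest Gsn of all tags, tag 4 had 191.4 CPM, and the rest had 19.8 to 58.8. Cells with markers of stroma also carried Gsn: they held 31.0% of its UMIs in tag 1 and 8.34% in tag 2. Without those cells, which held the larger share of Gsn in tag 1, its ratio was 11.3. Snap47, a SNARE protein of vesicle fusion (chr11:59407141-59450041), went from 18.6 CPM in tag 1 to 117.5 in tag 2, a ratio of 6.32 (5.80 to 6.88), and tag 4 had 118.8.

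The 300-base RefSeq promoter windows (GRCm38.p6, 250 bases before to 50 after the start site) were searched for the Runx core TGTGGT on both strands, whose reverse complement is ACCACA. It was present in 16.8% of all 32851 windows and, counting any start, in 18.9% of 27025 genes. Of the 20 named genes with the largest ratios, 18 had a window and 6 of these held the core (Cpa3, Sparc, Gimap1, Gsn, Snap47, Clec12a). Of the 20 with the smallest ratios, 16 had a window and 5 held it (Ctsg, Lyz2, Psap, Cd48, Serpina3g). Printed below, 5′ to 3′ on the gene's strand, are the windows of the gene with the largest ratio, 2 higher genes and 1 lower gene that hold the core, which stands in capitals. The windows are chr11:5803747-5804046 on the minus strand for Pgam2, chr11:59449985-59450284 on the minus strand for Snap47, chr6:48738797-48739096 on the plus strand for Gimap1 and chr14:56102525-56102824 on the minus strand for Ctsg. Pgam2 has no core in this window.
Pgam2: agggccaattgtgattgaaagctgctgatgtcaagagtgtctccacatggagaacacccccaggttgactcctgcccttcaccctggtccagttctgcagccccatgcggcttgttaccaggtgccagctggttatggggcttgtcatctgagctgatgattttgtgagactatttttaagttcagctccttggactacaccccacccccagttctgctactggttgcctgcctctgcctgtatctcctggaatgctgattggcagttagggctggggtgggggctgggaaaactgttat
Snap47: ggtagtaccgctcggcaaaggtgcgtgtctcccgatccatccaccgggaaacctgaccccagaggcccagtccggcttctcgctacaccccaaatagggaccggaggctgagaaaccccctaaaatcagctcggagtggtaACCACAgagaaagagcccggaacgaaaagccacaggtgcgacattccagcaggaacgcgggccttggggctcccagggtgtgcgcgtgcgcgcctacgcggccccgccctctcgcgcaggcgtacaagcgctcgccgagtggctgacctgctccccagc
Gimap1: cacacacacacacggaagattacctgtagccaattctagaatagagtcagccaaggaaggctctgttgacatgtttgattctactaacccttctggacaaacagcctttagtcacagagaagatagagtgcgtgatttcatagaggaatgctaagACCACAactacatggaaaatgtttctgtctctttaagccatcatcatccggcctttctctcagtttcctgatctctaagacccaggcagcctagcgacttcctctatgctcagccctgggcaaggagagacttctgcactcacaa
Ctsg: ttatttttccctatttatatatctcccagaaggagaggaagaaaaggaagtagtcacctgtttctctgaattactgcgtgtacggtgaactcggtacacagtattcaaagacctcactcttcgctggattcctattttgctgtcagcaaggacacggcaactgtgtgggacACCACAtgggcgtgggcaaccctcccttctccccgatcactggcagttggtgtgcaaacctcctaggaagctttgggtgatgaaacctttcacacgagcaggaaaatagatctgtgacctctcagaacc
The core starts 109 bases before the start site in Snap47, 95 in Gimap1 and 79 in Ctsg, each time on the strand opposite to the gene. A match in these letters is a description and says nothing of binding in these cells.

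Several regulators that define the T lineage were higher in tag 2. List counts from here on are over genes with at least 10 UMIs in both tags at any level. Of 12430 such genes in all, 6.55% were at least 2-fold higher in tag 2 and 1.77% at least 2-fold lower, with a median ratio of 1.06. Among the 5038 genes with a mean of 20 CPM these shares were 1.61% and 0.595%. For other settings, such as thinned cells or other tag calls, no such share at any level is given. Of 9 T-lineage regulators 5 were at least 2-fold higher, none was lower, and the median ratio was 2.02. Only 5 of the 9 had a mean of 20 CPM, and 2 of these were 2-fold higher, Tcf7 and Gata3 (1.61% of all genes at that level). With every cell thinned to 10000 UMIs the 5 became 3. Tcf7, the Notch-induced factor of T specification (chr11:52246527-52283383), had 49.6 CPM in tag 1 and 178.7 in tag 2, a ratio of 3.60 (3.41 to 3.81). Only tag 4 was higher, with 206.2 CPM, and tag 6 was the lowest with 28.2. Gata3, which T progenitors need from their first stages (chr2:9857078-9887953), had 24.9 and 85.1 CPM, a ratio of 3.42 (3.16 to 3.70). Tag 1 was level with tag 6 (24.8 CPM) at the bottom of the 8 tags for Gata3, and tag 4 was at the top with 101.8.

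Bcl11b, the commitment factor, was low in both tags but differed more, at 2.04 CPM in tag 1 and 15.6 in tag 2, a ratio of 7.63 (5.91 to 9.96). Its level in tag 2 was still far below the 128.5 CPM of tag 4 and the 63.4 CPM of tag 7. Lef1, a relative of Tcf7, had a ratio of 2.36 that was 1.57 after thinning. Tox, at 8.05 and 16.2 CPM, had a ratio of 2.02 that was 1.68 after thinning, 1.81 with another tag caller (HTODemux, a threshold set for each tag from its own background) and 1.91 with TMM scaling. Notch1 itself was nearly level at 41.0 and 45.1 CPM. Its target Hes1, a repressor downstream of Notch, had 53.3 and 114.2 CPM, a ratio of 2.14 (2.02 to 2.27). Of the 6 genes of the Notch list, Hes1 and Notch3 were at least 2-fold higher (6.55% of all genes). Notch3 had a ratio of 1.09 without the cells with stromal markers.

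The CD3 chains carry the signal of the T-cell receptor and lie side by side on chromosome 9. Cd3g (chr9:44969572-44980431) had 20.9 CPM in tag 1 and 125.3 in tag 2, a ratio of 5.99 (5.53 to 6.50). Cd3d had 3.53 and 25.1 CPM, a ratio of 7.12, and Cd3e had 1.63 and 4.17 CPM, a ratio of 2.55. All 3 were lower in tag 2 than in tag 4, where Cd3g reached 742.5 CPM, and tag 1 had the lowest level of Cd3g, Cd3d and Cd3e among the 8 tags. The UMIs of this cluster were concentrated in some cells, and without the 5 cells richest in each gene the ratios were 12.5 for Cd3d and 4.45 for Cd3e. For Cd3d those cells held 52.1% of the UMIs in tag 1 and 15.6% in tag 2. Lck, the kinase that starts receptor signalling, had 67.1 and 144.1 CPM, a ratio of 2.15, or 1.98 with HTODemux calls. Skap1, an adaptor of the same pathway, had a ratio of 2.48, or 1.97 after thinning. Of 14 genes of the CD3 and signalling list, 6 were at least 2-fold higher (6.55% of all genes) and none 2-fold lower, with a median of 1.42. Of the 5 with a mean of 20 CPM, 2 were higher (1.61% of all genes at that level). Trbc1, a constant region of the receptor's beta chain that can be transcribed before rearrangement, had 220.0 and 452.2 CPM, a ratio of 2.06.

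**Figure D2:**
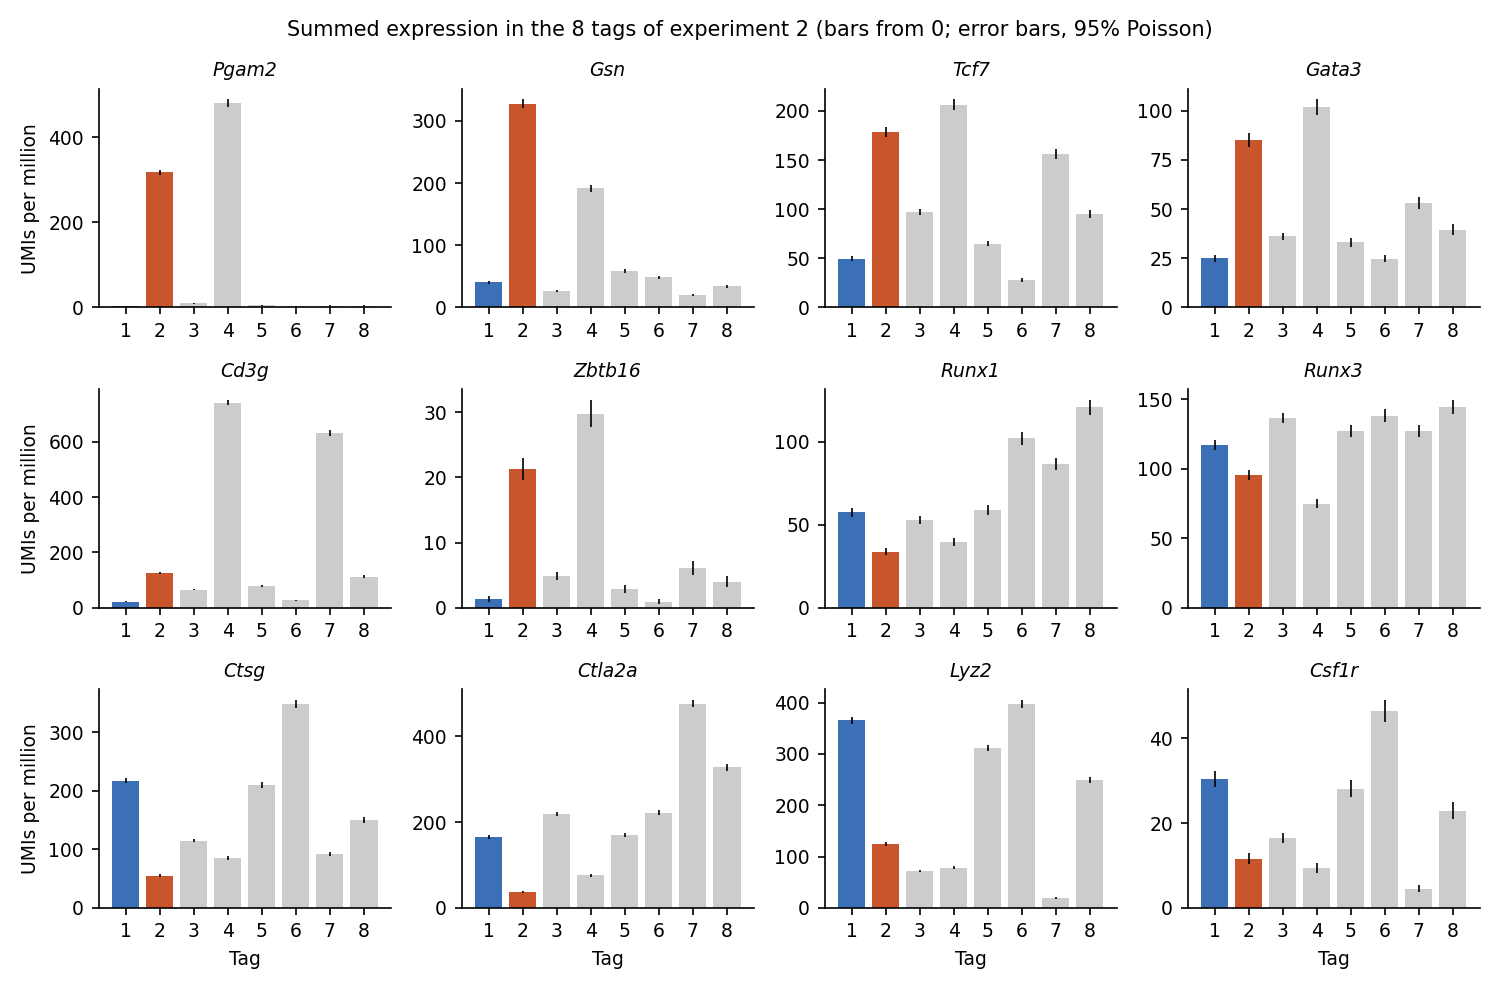
Bars are CPM (y axis from 0) in each of the 8 tags of experiment 2 (x axis) for 12 genes, with 95% Poisson error bars for counting error. Tag 1 is blue, tag 2 is orange and the tags of the rest are grey; Pgam2 is high only in tags 2 and 4, Runx1 is lowest in tag 2 (33.7 CPM), and Cd3g is highest in tags 4 and 7.

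Genes used by innate lymphoid cells, relatives of T cells that share their early regulators, included Zbtb16, which had the largest ratio of the listed genes with at least 10 UMIs in both tags. Zbtb16 (PLZF, a factor of innate-like lymphocytes; chr9:48651797-48836225) had 44 UMIs in tag 1 and 603 in tag 2, which is 1.28 and 21.3 CPM and a ratio of 16.6 (12.2 to 23.1). Tag 4 was again the closest, with 29.8 CPM, and the others had 0.86 to 6.03. Without the 5 cells of each tag richest in the gene the ratio was 28.9. Those cells held 45.5% of the Zbtb16 UMIs of tag 1 and 4.81% of those of tag 2, so the rise follows from leaving them out. Tox2 had 8 UMIs in tag 1 and 110 in tag 2, a count too low in tag 1 for a ratio under the rule of 10 UMIs. Tox2 was also high in tag 4 (11.1 CPM against 3.88 in tag 2). Of the 8 innate lymphoid genes with a ratio, 2 were at least 2-fold higher, Zbtb16 and Rora (6.55% of all genes). None was lower, and the median was 1.55. After thinning 1 was higher and 1 lower, and with HTODemux calls 4 were higher and 1 lower. Rora had 28 and 53 UMIs and a ratio of 2.29 that was 1.26 after thinning. Gzma, a granzyme of cytotoxic cells, had 433.4 and 1028 CPM, a ratio of 2.37, and was at 2262 CPM in tag 7.

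The Gimap genes code for small GTPases of lymphocyte survival and form a cluster on chromosome 6. Of 6 with a ratio, 4 were at least 2-fold higher in tag 2 (6.55% of all genes), none was lower, and the median was 2.65. Of these 6, 2 had a mean of 20 CPM, Gimap9 and Gimap1, and both were higher (1.61% of all genes at that level). Gimap9 had 24.5 CPM in tag 1 and 79.1 in tag 2 (ratio 3.23), and Gimap1 had 30.3 and 77.9 CPM (ratio 2.57). Gimap5 had a ratio of 2.73, and Gimap4 had 14 and 50 UMIs. Gimap3 ran the other way with 17 and 7 UMIs, too few for a ratio.

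Other leading genes had less related roles. Fgf3, a secreted growth factor, had 23.2 CPM in tag 1 and 113.6 in tag 2, a ratio of 4.89, level with the 112.7 CPM of tag 7. Nrgn (neurogranin, a calmodulin-binding protein) had 159.9 and 622.4 CPM, a ratio of 3.89, with 634.0 in tag 4. Ly6d, a surface protein of early lymphoid progenitors, had 40.7 and 149.5 CPM, a ratio of 3.67. Cd63, a tetraspanin of granules and endosomes, had 65.6 and 228.8 CPM, a ratio of 3.49 that was 5.24 with HTODemux tag calls. Ratios of 2.44 to 3.30 followed for H2-Q7 (a nonclassical MHC class I gene), Clec12a (an inhibitory lectin), Prss2 (a trypsinogen), Cpa3 (a mast-cell carboxypeptidase), Cd7 (an early T and NK surface protein), Timp2, Sparc and Jak1 (a kinase of cytokine receptors). Prss2 was at 174.9 CPM in tag 1 and 500.1 in tag 2, where it had its highest level of the 8 tags. Among lower genes in level, Itga2b (integrin alpha IIb, shared by progenitors and megakaryocytes) had 13.8 and 60.7 CPM, a ratio of 4.41, and Mycn (a MYC family factor) had 10.8 and 35.9 CPM, a ratio of 3.33. Mycn had its highest level of the 8 tags in tag 2, and Itga2b was near its 57.5 CPM of tag 4. Crip1, a LIM-domain protein chosen after its values were seen because it was the most abundant of the 81 genes, had 1002 and 2277 CPM.

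Genes of monocytes and granulocytes made up most of the listed genes that were lower in tag 2. Of 12 monocyte and macrophage genes with a ratio, 7 were at least 2-fold lower (1.77% of all genes) and none was higher, and the median ratio was 0.478. Of the 8 with a mean of 20 CPM, 5 were lower (0.595% of all genes at that level). Csf1r, the receptor for M-CSF, had 1039 UMIs in tag 1 and 327 in tag 2, a ratio of 0.381 (0.335 to 0.432). F13a1, a coagulation factor of monocytes, had 175 and 16 UMIs, a ratio of 0.111, which was 0.365 without cells that carried markers of classes other than T progenitors. F13a1 is among those markers. Adgre1 had a ratio of 0.344, Ctss 0.425, Ccr2 0.472 and Ly86 0.484. Lyz2, the lysozyme of myeloid cells, had 365.3 CPM in tag 1 and 124.0 in tag 2, a ratio of 0.339 (0.327 to 0.352). That ratio was 0.778 with HTODemux tag calls, and 33.0% of the Lyz2 UMIs of tag 2 came from 5 cells.

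The granule genes divided. Ctsg (cathepsin G, a primary granule protease; chr14:56099885-56102574) had 217.6 CPM in tag 1 and 54.7 in tag 2, a ratio of 0.251 (0.238 to 0.265), and 54.7 was the lowest of the 8 tags. None of the other 6 primary granule genes was past 2-fold when all cells were used. Mpo (myeloperoxidase) had 68.8 and 73.4 CPM, Elane (neutrophil elastase) 71.5 and 117.0, and Prtn3 (proteinase 3) 618.3 and 433.1. Without cells that carried markers of other classes the ratio of Mpo went from 1.07 to 0.472, that of Ms4a3 from 0.909 to 0.396 and that of Elane from 1.64 to 0.939. These genes are among the markers that choose the cells left out, so such shifts partly follow from the cut. With HTODemux calls that of Elane was 2.40. In tag 2, 48.6% of the Elane UMIs came from 5 cells. Of 11 secondary granule and alarmin genes, 5 were at least 2-fold lower, Ltf, Chil3, Fcnb, Mmp8 and Cd177 (1.77% of all genes). None was higher, and the median was 0.621. The direction of this list changed with the tag calls: with HTODemux calls none of the 11 was 2-fold lower, 7 were 2-fold higher and the median was 2.72. There Ltf, Chil3 and Cd177 had ratios of 1.45, 1.39 and 2.04, Ngp 3.31 and Camp 4.25. Over all genes with a mean of 20 CPM, HTODemux calls gave 140 higher and 27 lower genes, against 81 and 30. Fcnb had 1.59 when the top tag had to be 10 times the second.

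Of 14 cytokine and growth factor receptors, 4 were at least 2-fold lower (1.77% of all genes), none was higher, and the median was 0.856. Of the 6 with a mean of 20 CPM, 1 was lower, Csf1r (0.595% of all genes at that level). Flt3, the receptor of the Flt3 ligand in the medium, had 8.46 CPM in tag 1 and 2.97 in tag 2, a ratio of 0.351 (0.272 to 0.448). Csf2rb, the shared chain of the GM-CSF and IL-3 receptors, had a ratio of 0.402, and Csf3r, the G-CSF receptor, had 0.265 with 146 and 32 UMIs, or 0.135 after thinning. Kit was on the other side at 33.3 and 56.5 CPM, a ratio of 1.70 (1.57 to 1.83), with the highest Kit of the 8 tags in tag 2. Il2ra was level at 63.3 and 64.3 CPM, a ratio of 1.02 (0.955 to 1.08), and these were the 2 lowest Il2ra levels of the 8 tags. Il7r, the receptor of IL-7, had 5.66 and 4.91 CPM and was likewise lowest in these 2 tags.

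The smallest ratio among abundant genes belonged to Ctla2a, an inhibitor of cysteine proteases (chr13:60934155-60936625). It had 165.8 CPM in tag 1 and 36.2 in tag 2, a ratio of 0.218 (0.204 to 0.234). Tag 2 was the lowest of the 8 tags, tag 4 was next with 76.1 CPM, and tag 7 was the highest with 476.2. Ass1, an enzyme of arginine synthesis, had 105.3 and 33.2 CPM (ratio 0.315). Tpd52 had a ratio of 0.380, Egfl7 (a secreted factor of progenitors and endothelium) 0.420, Psap (the saposin precursor) 0.450, Cd48 0.472, and Xrcc6, the Ku70 subunit of DNA repair, 0.488. Hbb-bt, an adult beta-globin, had 780.9 CPM in tag 1 and 350.2 in tag 2 and 626.4 to 2175 in the other tags. No cell of either tag had UMIs of 4 erythroid markers, and the part of free globin RNA in its ratio of 0.448 was not tested.

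The Runx genes themselves were within 2-fold. Runx1 (chr16:92601466-92826074) had 57.5 CPM in tag 1 and 33.7 in tag 2, a ratio of 0.586 (0.542 to 0.634). Tag 2 had the lowest Runx1 of the 8 tags, tag 4 had 39.5 CPM, tags 3 and 5 had 52.9 and 58.8, and tags 6, 7 and 8 had 102.1, 86.7 and 120.9. Runx3 (chr4:135120645-135177990) had 117.1 and 95.3 CPM, a ratio of 0.814 (0.775 to 0.855), and was lower only in tag 4 (74.7 CPM). Runx2 had 747 and 367 UMIs, a ratio of 0.595, and Cbfb had 39.3 and 43.0 CPM, a ratio of 1.09. Any vector-borne Runx1 RNA that was counted cannot be separated from endogenous RNA here, and a guide can leave a transcript in place. The Runx counts therefore do not give the tags' conditions. Bcl2, which all the mice carry as a transgene, had 59.4 and 97.2 CPM, a ratio of 1.64. Whether transgene transcripts are counted in it is not known from the sources used here.

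Many programmes were close to level. None of 15 S phase genes (median ratio 1.02), 15 G2 and mitosis genes (1.07), 9 D cyclins and Cdk inhibitors (1.10), 11 Bcl2 family genes (0.946) or 81 ribosomal protein genes (0.972) was past 2-fold. Of 9 myeloid regulators, Id1 alone was, at 0.493, or 0.879 with HTODemux calls. Spi1 (PU.1), the regulator shared by myeloid cells and early T progenitors, had 254.8 and 282.0 CPM, a ratio of 1.11. Of 12 stem and progenitor regulators, Mycn and Gfi1b were at least 2-fold higher and none was 2-fold lower, with a median of 0.979. Lmo2 (ratio 0.572) and Cd34 (0.619), both genes of immature progenitors, were below 1. Over all 27 lists, 255 genes had a ratio, of which 41 were at least 2-fold higher and 21 at least 2-fold lower at any level. Among all 12430 genes the shares were 6.55% and 1.77%, and the lists were chosen with earlier results of these data known.

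**Figure D3:**
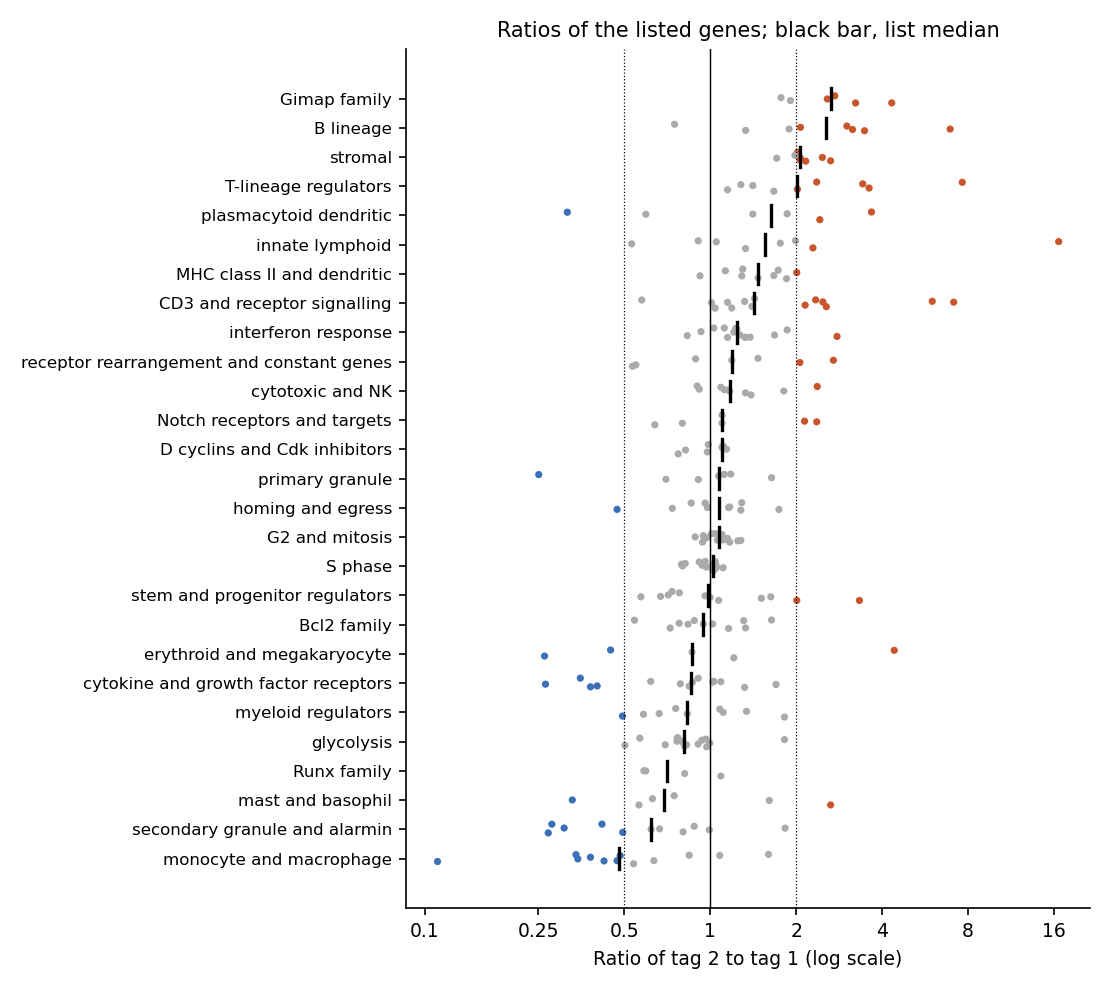
Each point is a listed gene with at least 10 UMIs in both tags, placed by its ratio of tag 2 to tag 1 (x axis, log scale) in the row of its list (y axis), and the black bars are list medians. Orange points are at least 2-fold higher, blue points at least 2-fold lower; the Gimap, B lineage and stromal lists have the highest medians (2.65, 2.54 and 2.07) and the monocyte list the lowest (0.478).

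The share of cells with a UMI was set beside the summed levels. Every cell was thinned to 10000 UMIs because tag 1 cells were deeper, which left out 34 cells of tag 1 and 45 of tag 2. After thinning, cells with a Tcf7 UMI made up 29.6% of tag 1 (interval 26.8 to 32.5) and 70.2% of tag 2 (67.2 to 73.1), or 44.0% and 82.0% unthinned. For Gata3 the thinned shares were 19.6% and 48.8% (40.3% and 69.1% unthinned). For Gsn they were 22.0% and 82.9% (43.2% and 91.4% unthinned), so Gsn was detected in most tag 2 cells.

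Rarer genes were set beside 223 cells of all tags with at least 6 granulocyte markers (median 31879 UMIs before thinning). Droplet background was not measured, and these cells stand in for it only in part, since some may express the genes. For Pgam2 the thinned shares were 1.5% in tag 1, 44.0% in tag 2 and 2.69% (0.994 to 5.76) in the granulocyte-marked cells, so tag 1 was not above those cells. Unthinned they were 3.00%, 51.6% and 4.04%. For Zbtb16 the thinned shares were 0.599%, 18.6% and 2.69%, with tag 1 again not above those cells, and 2.61%, 35.6% and 6.28% unthinned. Cd3g had thinned shares of 5.39% (4.08 to 6.98), 20.2% (17.7 to 22.9) and 3.14% (1.27 to 6.36). Bcl11b had 1.80% (1.07 to 2.83), 10.1% (8.29 to 12.2) and 1.35% (0.278 to 3.88). For both genes the interval of tag 1 overlapped that of the granulocyte-marked cells and the interval of tag 2 lay above it. Unthinned, Cd3g was detected in 10.4%, 26.0% and 4.93%, and Bcl11b in 3.29%, 16.6% and 3.14%.

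For myeloid genes the comparison was with 526 cells with at least 8 T-progenitor markers (median 18638 UMIs before thinning). Csf1r had thinned shares of 21.4% in tag 1, 8.78% in tag 2 and 0.760% in T-marked cells, or 41.3%, 14.1% and 1.33% unthinned. Lyz2 had thinned shares of 30.0%, 11.4% and 3.99%, or 53.7%, 20.5% and 8.94% unthinned. Ctsg had thinned shares of 46.3%, 13.7% and 13.1% (10.4 to 16.3), so its share in tag 2 lay within the counting error of that in T-marked cells. Unthinned, they were 59.4%, 19.8% and 19.6%. Ctla2a had thinned shares of 54.6% in tag 1 and 15.7% in tag 2, while T-marked cells had 60.5% and granulocyte-marked cells 11.7%. Unthinned, tag 1 had 66.8% and tag 2 had 24.8%. For Runx1 the thinned shares were 42.6% (39.5 to 45.7) and 24.0% (21.3 to 26.8), or 75.5% and 45.5% unthinned. Spi1 differed little, with 79.9% and 79.1% after thinning.

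**Figure D4:**
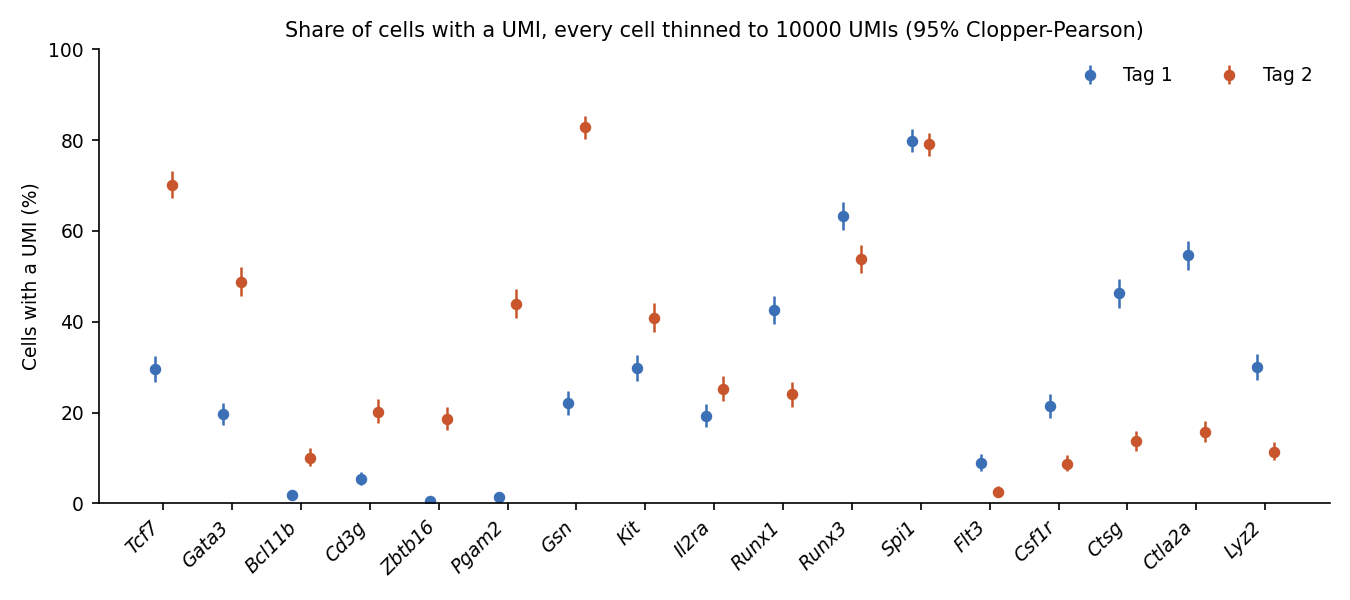
Points are the percent of cells with at least 1 UMI of each gene (y axis) after thinning every cell to 10000 UMIs, with 95% Clopper-Pearson bars, for tag 1 (blue, 1001 cells) and tag 2 (orange, 980 cells). Tcf7, Gata3, Pgam2, Gsn and Zbtb16 were detected in more tag 2 cells, Runx1, Csf1r, Ctsg, Ctla2a and Lyz2 in fewer, and Spi1 in nearly equal shares.

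Shares of cells that combined 2 genes also differed between the tags. Such shares follow in part from the share of each gene alone, and no expected share was computed. Each gene named here also differed between the tags by itself. After thinning, cells with UMIs of both Tcf7 and Gata3 were 10.1% of tag 1 (8.29 to 12.1) and 40.6% of tag 2 (37.5 to 43.8), or 26.9% and 63.6% unthinned. Cells with neither were 60.9% and 21.6% thinned, or 42.6% and 12.5% unthinned. Cells with Csf1r and no Tcf7 were 19.8% of tag 1 and 6.63% of tag 2 after thinning, and cells with Tcf7 and no Csf1r were 28.0% and 68.1%. Without thinning, cells with both Zbtb16 and Bcl11b were 2 of 1035 in tag 1 and 97 of 1025 (9.46%) in tag 2. After thinning they were 0 of 1001, with an upper interval limit of 0.368%, and 33 of 980 (3.37%). Unthinned, 268 Zbtb16 cells of tag 2 had no Bcl11b UMI and 97 had one. Among tag 2 cells without Zbtb16, 73 had a Bcl11b UMI and 587 had none.

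The stage genes Kit and Il2ra separated the tags less. After thinning, cells with Kit and no Il2ra were 22.8% of tag 1 (20.2 to 25.5) and 29.8% of tag 2 (26.9 to 32.8), which is 7.02 points more in tag 2. Unthinned they were 38.3% (35.3 to 41.3) and 40.0% (37.0 to 43.1), so this difference depended on the depth used. Cells with both were 6.99% and 11.1% after thinning (17.9% and 26.7% unthinned), and cells with Il2ra alone 12.3% and 14.1% (9.86% and 9.95% unthinned). A cell without a UMI of a gene at this level may still express it.

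Pgam2 divided the cells of tag 2 along several of these genes but not all. After thinning, 431 tag 2 cells had a Pgam2 UMI and 549 had none, and these classes are cut from 1 gene and are not cell types. Tcf7 was detected in 87.9% of cells with Pgam2 (84.5 to 90.9) and in 56.3% of those without (52.0 to 60.5). Cd3g was detected in 36.7% and 7.29%, and Bcl11b in 20.2% and 2.19%. The cells without Pgam2 were therefore close to tag 1 for Cd3g (5.39%) and Bcl11b (1.80%). For other genes they were not: Gsn had a mean of 4.56 UMIs per cell with and 3.07 without Pgam2, against 0.371 in tag 1, and Tcf7 was detected in 29.6% of tag 1. The myeloid genes ran the other way, with Csf1r in 2.55% and 13.7% and Ctsg in 4.18% and 21.1%, against 21.4% and 46.3% in tag 1. Runx1 was alike in the cells with and without Pgam2, at 22.0% (18.2 to 26.3) and 25.5% (21.9 to 29.4), both below the 42.6% of tag 1. Il2ra, with a summed ratio of only 1.02 between the tags, was detected in 36.0% of cells with Pgam2 and 16.8% without, against 19.3% in tag 1. Kit was detected in 47.6% and 35.7%, against 29.8% in tag 1.

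**Figure D5:**
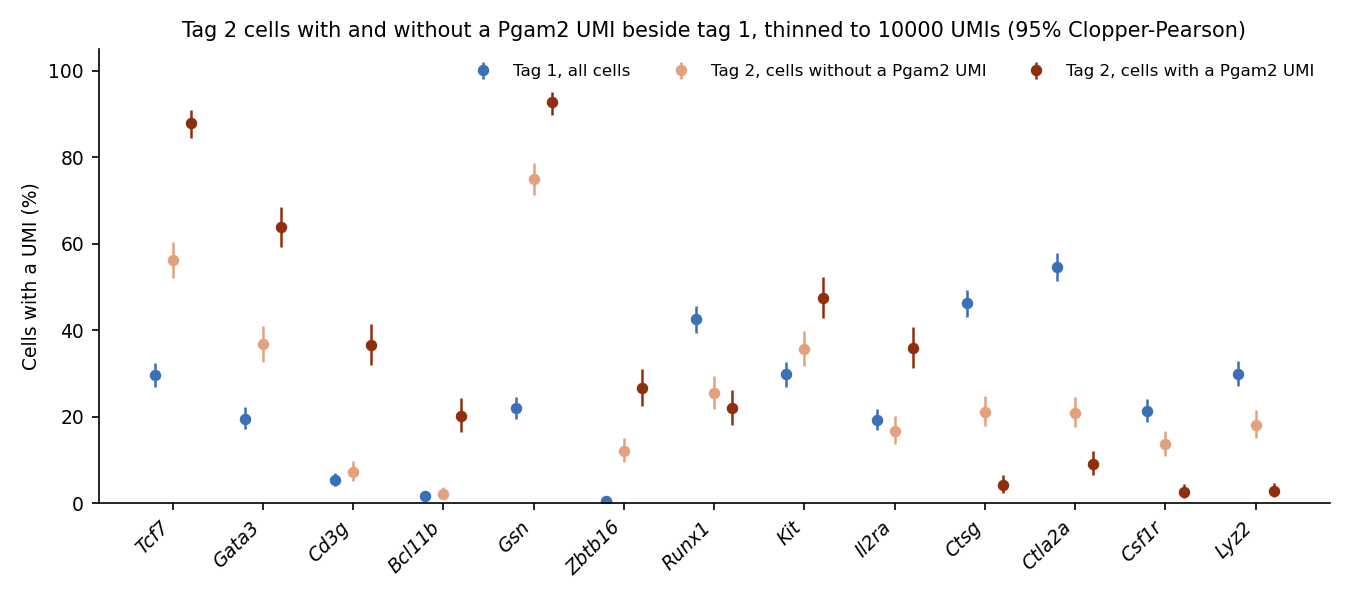
Points are the percent of cells with a UMI of each gene (y axis), after thinning to 10000 UMIs, in all tag 1 cells (blue), tag 2 cells without a Pgam2 UMI (light) and tag 2 cells with one (dark), with 95% Clopper-Pearson bars. For Cd3g and Bcl11b the light points sit near tag 1, for Gsn and Ctla2a they sit nearer to the dark points, and for Runx1 the intervals of the light and dark points overlap.

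Cells carrying at least 4 markers of another cell class moved with these differences. After thinning, granulocyte-marked cells were 110 of 1001 in tag 1 (11.0%) and 58 of 980 in tag 2 (5.92%), and monocyte-marked cells were 8.59% and 2.14%. Either class together was 15.9% and 7.04%. Many cells lay near the limit, since 129 tag 1 cells had exactly 3 granulocyte markers. Dendritic-marked cells were the reverse, at 4.70% and 10.8%, with 4.16% to 33.7% in the other tags. Both tags were low in these markers, which summed to 152.0 CPM in tag 1 and 259.3 in tag 2. The other 6 tags had 347.8 to 1181 CPM. H2-Aa (MHC class II) had 37.9 and 65.8 CPM, a ratio of 1.73 that was 3.80 without the cells marked for any class but T progenitor. H2-Aa is among the dendritic markers that choose those cells, so this shift partly follows from the cut. Exactly 3 dendritic markers, just below the cut, were found in 11 tag 1 cells and 86 tag 2 cells. Without the marked cells 6 of 9 MHC class II and dendritic genes, most of these 6 being such markers, were at least 2-fold higher. In all cells it was 1 of 9 (6.55% of all genes). T-progenitor-marked cells were 16.3% and 38.7%. Erythroid-marked cells were 0 in both tags, which allows shares of up to 0.300% and 0.306% when 3 cells are taken as the limit of a count of 0. The plasmacytoid, mast, B and NK classes had at most 3 cells in either tag.

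Without all cells that carried 4 markers of any class but T progenitor, 823 tag 1 cells and 820 tag 2 cells remained. There the ratios were 3.58 for Tcf7, 3.30 for Gata3, 5.65 for Cd3g, 133.5 for Pgam2, 0.293 for Csf1r and 0.223 for Ctsg. These 6 ratios were past 2-fold there, but the genes were picked among those already known to differ. Csf1r and Ctsg are also among the markers that choose the cells left out, so their ratios there partly follow from the cut. Of the 81 higher genes 61 were also called there, and of the 30 lower genes 17.

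The stromal genes are given apart. Collagen and matrix genes of fibroblast-like cells, which a CD45 sort should leave out, were higher in tag 2, with 6 of 8 at least 2-fold (6.55% of all genes) and a median of 2.07. After thinning 1 of the 8 was, and with HTODemux calls all 8 were. HTODemux calls also gave more higher genes among all with a mean of 20 CPM, 140 against 81. Col1a2 had 100.5 CPM in tag 1 and 208.1 in tag 2. A total of 32 tag 1 cells (3.09%) and 47 tag 2 cells (4.59%) had UMIs of at least 3 stromal markers, and they held 97.8% and 98.9% of the Col1a2 UMIs. Without them the ratio of Col1a2 was 1.02, that of Col1a1 0.903 and that of Sparc 1.23. These genes are among the markers that define the cells left out, so a shift in their ratios follows from the cut and decides nothing. In the 1879 cells with no tag the 9 stromal markers summed to 2270 CPM, against 414.1 in tag 1, 837.4 in tag 2 and 168.6 at the lowest tag.

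Genes of the B lineage, which progenitors share before T commitment, had 5 of 8 at least 2-fold higher (6.55% of all genes) and a median of 2.54. None of the 3 with a mean of 20 CPM was (1.61% of all genes at that level). The count at any level was 3 with HTODemux calls and 2 without cells carrying markers of other classes. Vpreb1, a surrogate light chain gene, had 78 UMIs in tag 1 and 446 in tag 2, a ratio of 6.92 (5.43 to 8.92), and was detected in 5.02% and 21.4% of cells unthinned. Its level in tag 2, 15.7 CPM, lay below the 41.0 and 34.4 CPM of tags 7 and 8. Cd79a (ratio 3.01) and Vpreb3 (2.07) had ratios of 0.465 and 0.402 without the 5% of cells with the highest Scrublet doublet scores. Blnk (3.15) had 0.810 without cells carrying markers of other classes, and Blnk is among those markers.

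The choice of cells at the limit of the tag rule can be read from Pgam2. In tag 2 the share with a Pgam2 UMI was 49.2% of the 65 cells just inside the limit, with a top tag 3 to 4 times the second, and 45.6% of the 57 cells just outside it. In tag 1 it was 3 of 33 cells just inside (9.09%, interval 1.92 to 24.3) and 3 of 53 just outside (5.66%, interval 1.18 to 15.7). Among the 794 tag 1 cells with a top tag at least 10 times the second it was 2.90%, within both intervals.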

How the data were processed

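Single-cell RNA (10x Chromium v3) and hashtag libraries of experiment 2 were used. The deposited matrices hold raw counts of UMIs per gene and cell, and the deposited hashtag tables hold raw counts for 8 tags. Whether the latter count molecules or reads is not given in the sources used here. The submitters' processing notes name Cell Ranger 3.0.0 and the build mm10 (GRCm38). The filter that chose the barcodes is not given there.

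Cells were filtered, assigned to tags and summed as described above, with numpy 2.4.6 and scipy 1.17.1. Levels have Poisson intervals, ratios exact conditional intervals and shares Clopper-Pearson intervals, all at 95%. With 1 culture a side and no stated conditions, no test was made and no p-value is given. A gene was called at a ratio of at least 2 or at most 0.5 if the mean of both tags reached 20 CPM. Named genes were those of 27 lists (291 symbols, 287 in the files) and the 20 largest and 20 smallest ratios among 2606 genes whose mean reached 50 CPM and whose lower tag had 10 UMIs. Listed genes got a ratio only with at least 10 UMIs in both tags. The tags and lists were chosen with earlier results of these data known.

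Scrublet's own threshold (scanpy 1.11.5) marked no cell, so it had not worked, and doublets were limited only by the tag rule. Positions and promoters are RefSeq's (GRCm38.p6). The ratio and its interval were tested on simulated counts. Alternatives covered the tag call (including HTODemux of Seurat 5.3.0 at a quantile of 0.99), cell filters, doublet scores, cell makeup, scaling (TMM of edgeR 4.0.16, size factors of DESeq2 1.42.0), summing, thinning, the 5 richest cells and the thresholds.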

Additional observations from a re-analysis of the deposited data

How the results depend on the processing

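The counts of 81 higher and 30 lower genes moved mainly with the thresholds. With a mean of at least 50 CPM they were 38 and 11, at 5 CPM 261 and 79, and with no filter 2841 and 1548. A fold of 1.5 gave 232 and 106, and a fold of 4 gave 8 and 1. HTODemux tag calls gave 140 higher genes, of which 72 were among the 81. TMM and DESeq2 size factors each gave 67 and 35. Cells with Kit alone differed by 7.02 points after thinning against 1.74 before. Cells marked as granulocytes or monocytes differed by -8.84 points, which was -18.1 with 3 markers and -3.70 with 5.

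Of 82 named ratios past 2-fold, 46 stayed past it under all 13 settings of cells, tags, scaling and summing, and 13 turned direction in at least 1. With HTODemux calls the ratio of Ltf was 1.45, the ratio of Chil3 1.39 and the ratio of Cd177 2.04, and the difference in cells with a UMI of Bst2 was -0.954 points. The ratio of Fcnb was 1.59 with the top tag 10 times the second, and the ratio of Prss34 was 1.21 without the 5 richest cells. Without the 5% highest Scrublet scores the ratio of Cd79a was 0.465 and the ratio of Vpreb3 0.402. Without cells of other marked classes the ratio of Blnk was 0.810, the ratio of Col1a1 0.788, the ratio of Col1a2 0.976, the ratio of Col3a1 0.675, the ratio of Postn 0.270 and the ratio of Ifit1 0.900. Without stromal-marked cells, an alternative chosen after seeing the data, the ratio of Col1a1 was 0.903, the ratio of Col3a1 0.761 and the ratio of Postn 0.231. The causes were not tested. The last 2 settings remove the cells that hold most collagen UMIs and choose them by markers that include the collagen genes.

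No paired analysis was possible because each tag is 1 culture with no replicate number, and leaving out a replicate was not possible for the same reason. Intervals cover counting error only, and variation between cultures is unknown.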
